A study of Rattus norvegicus with 48 samples.

Results

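The miR-200 family is a group of small RNAs made mainly in epithelial cells. Its members among the mature miRNAs measured here were taken by name, and they are rno-miR-200b-3p, rno-miR-200a-3p, rno-miR-429, rno-miR-200b-5p and rno-miR-141-3p, 5 of the 188 miRNAs with values. Of 5 further arms of the family that were looked for, including miR-200c-3p, 0 were among the 188, and they are not analysed here. The miRNAs came from laser-captured collecting duct, thick ascending limb of Henle's loop, proximal tubule and glomerulus of 3 untreated male Sprague-Dawley rats aged 6 months. Collecting duct was picked on 8 µm frozen sections by an antibody against aquaporin-2, thick ascending limb by one against Tamm-Horsfall protein and proximal tubule by one against glutathione S-transferase. Glomeruli were picked by a histochemical stain instead. As each region was picked by a stain of its own, an effect of the staining and of the region cannot be told apart for any region. There were 3 libraries each of collecting duct, thick ascending limb and proximal tubule, 1 per rat, and 2 of glomerulus, from rats 1 and 3. Each library was read on 4 flow cells. A further glomerulus library that the submitters marked as left out is also labelled rat 3 and is not analysed here, and no glomerulus library is labelled rat 2.

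The family acts chiefly by repressing ZEB1 and ZEB2, transcription factors that shut off E-cadherin and other genes of epithelial cells, and ZEB1 and ZEB2 in turn repress the family's genes. Loss of the family is a known step of epithelial-mesenchymal transition, and the family has been studied in fibrosis of the renal tubule. The nephron's tubule is epithelium along its whole length, while the glomerulus is a tuft of capillaries held by mesangial cells and covered by podocytes.

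The values are read counts that the authors scaled by the trimmed mean of M-values (TMM) and carry no fixed unit. From the spacing between low values, a library held an estimated 147996 to 1296993 reads of the 188 miRNAs, fewest in the rat 3 glomeruli and most in the rat 3 thick ascending limb. miR-192-5p, a proximal tubule marker, stood at 20807 to 26006 in proximal tubule, against 1238 to 2298 in collecting duct, 2146 to 4246 in thick ascending limb and 761 to 1414 in glomerulus, and so was highest in the region labelled proximal tubule. The 2 endothelial markers measured, miR-126a-3p and miR-126a-5p, summed to 1935 to 3170 in collecting duct, 1158 to 1633 in thick ascending limb, 1249 to 1801 in proximal tubule and 4299 to 6290 in glomerulus. Of 4 erythroid markers 0 were among the 188. Between rats, the median SD of log2 values over 65 abundant miRNAs was 0.344 in collecting duct, 0.343 in thick ascending limb, 0.284 in proximal tubule and 0.811 in glomerulus, so the 2 glomerulus libraries differed from each other more than the tubule libraries did.

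The sequences show how the members group. RefSeq's tables for the rat assembly GRCr8 matched 2 of the 5 members as mature miRNAs, shown with the seed (bases 2 to 8 from the 5′ end, which pair with the target) in capitals.
rno-miR-141-3p: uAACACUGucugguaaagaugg
rno-miR-200b-5p: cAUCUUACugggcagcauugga
The seed of rno-miR-141-3p differs at 1 base from that of miR-200c-3p, which lies beside it, as C4U, counted from the 5′ end of the mature miRNA with the base of rno-miR-141-3p first. These 2 seeds divide the family's 3′ arms, and each hairpin of the members holds exactly 1 of them, marked in capitals.
Mir200b hairpin: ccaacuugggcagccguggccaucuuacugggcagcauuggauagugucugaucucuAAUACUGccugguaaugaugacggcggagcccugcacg
Mir429 hairpin: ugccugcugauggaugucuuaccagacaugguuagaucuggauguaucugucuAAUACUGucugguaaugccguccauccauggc
Mir200a hairpin: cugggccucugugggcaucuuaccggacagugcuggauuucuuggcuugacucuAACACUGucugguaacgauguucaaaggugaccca
Mir141 hairpin: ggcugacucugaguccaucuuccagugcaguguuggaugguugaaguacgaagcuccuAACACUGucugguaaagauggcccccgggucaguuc
Mir200b and Mir429 hold AAUACUG, while Mir200a and Mir141 hold AACACUG. By place the division is another one. Mir200b, Mir200a and Mir429 lie together on the minus strand within chr5:171929682-171931589, a stretch of 1908 bases. Each of these hairpins overlaps the annotated genes Ttll10 and LOC106182250. Mir141 lies with Mir200c on the minus strand within chr4:159209525-159210033, a stretch of 509 bases between Phb2 and Ptpn6 that overlaps no protein-coding gene in the table. So rno-miR-200a-3p shares its cluster with rno-miR-200b-3p and rno-miR-429 and its seed with rno-miR-141-3p. Pairs of these 4 hairpins were 57.7% to 64.6% identical over their aligned length.

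The mean of the 3 tubule segments was first set against the glomerulus. Of the 5 members, 4 were higher in the tubule segments: rno-miR-200b-3p, rno-miR-200a-3p, rno-miR-429 and rno-miR-141-3p. Over all miRNAs 14.9% were higher in this comparison, and the median log2 difference was 0.56. Both depend on the glomerulus library taken. Without rat 1 glomeruli 36.7% were higher with a median of 1.47 and 4 members called, and without rat 3 glomeruli 7.98% were higher with a median of −0.25 and 3 members called. The same 4 members differed among the 4 regions by the F-test, a call made for 24.5% of all miRNAs, for 45.2% without rat 1 glomeruli and for 37.2% without rat 3 glomeruli. Without a variance trend the F-test no longer called rno-miR-200a-3p (limma adjusted p = 0.052). The model gives miRNAs of like abundance 1 shared variance, so the standard errors and p below do not see each member's own spread. Between the 2 glomerulus libraries the SD of log2 values ran from 0.146 for rno-miR-429 to 3.63 for rno-miR-200a-3p. Over the alternatives tried, the limma adjusted p of tubule segments minus glomerulus reached 0.0076 for rno-miR-200b-3p, 0.0033 for rno-miR-429 and 0.0029 for rno-miR-141-3p. Fewer epithelial cells in a captured region and less of a miRNA per cell cannot be told apart in these bulk samples.

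**Figure D1:**
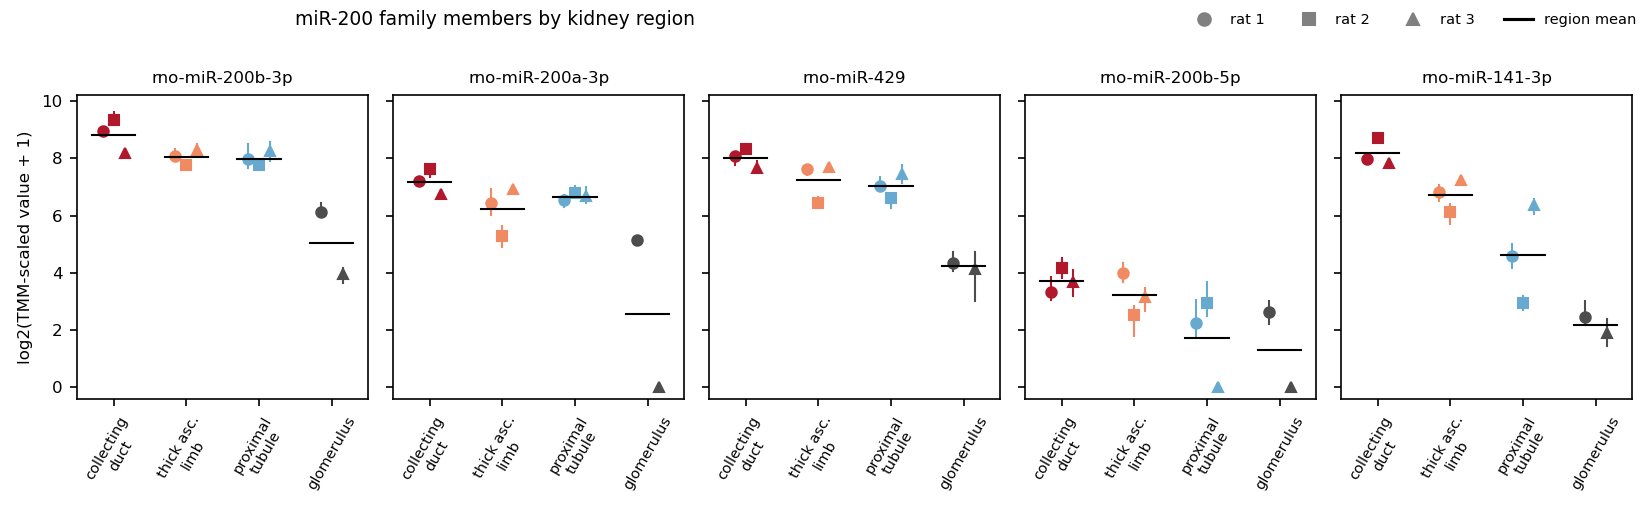
Each panel shows 1 member, with regions on the x axis and log2(TMM-scaled value + 1) on the y axis. Points are libraries (circle rat 1, square rat 2, triangle rat 3), vertical lines span the 4 flow cell runs and black bars are region means. The glomerulus points lie lowest for all but rno-miR-200b-5p, whose glomerulus points overlap those of thick ascending limb and proximal tubule, and the means of rno-miR-141-3p step down from collecting duct to thick ascending limb to proximal tubule.

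rno-miR-200b-3p, the most abundant member in every library but 1, had values of 494, 658 and 287 in the collecting duct of rats 1, 2 and 3. It had 271, 217 and 315 in the thick ascending limb and 255, 215 and 310 in the proximal tubule of the same rats, against 69.3 and 14.7 in the glomerulus of rats 1 and 3. Every tubule library thus lay above both glomerulus libraries, and thick ascending limb and proximal tubule covered nearly the same range. The log2 difference of tubule segments minus glomerulus was 3.24 ± 0.52 (SE), or 9.47-fold, with a limma adjusted p of 1.77e-08. The size depends on the glomerulus library taken: leaving out rat 1 glomeruli gave 4.28, and leaving out rat 3 glomeruli gave 2.21.

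rno-miR-200a-3p had values of 147, 197 and 107 in collecting duct, 88.1, 38.8 and 120 in thick ascending limb and 93.2, 110 and 102 in proximal tubule. In glomerulus it stood at 34.1 in rat 1 and at 0 in rat 3, where a count of 0 reads allows a value of up to 1.57. The lowest tubule library, the thick ascending limb of rat 2, was only slightly above the glomerulus of rat 1. The log2 difference was 4.19 ± 0.64, with a limma adjusted p of 3.01e-09. With 1 library at 0 its size depends on the pseudocount, and it was 4.69 with 0.5 and 3.00 with 5 in place of 1, past the threshold in both. It rested on the glomerulus of rat 3: leaving that library out gave 1.60 with a limma adjusted p of 0.064, which ends the call, and leaving out rat 1 glomeruli gave 6.78.

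rno-miR-429 had values of 269, 322 and 203 in collecting duct, 197, 86.5 and 207 in thick ascending limb and 132, 97.6 and 178 in proximal tubule, against 19.8 and 18.4 in glomerulus. Its glomerulus libraries stood closer to each other than those of the other members, and its difference changed least with them. The log2 difference was 3.34 ± 0.57, or 10.1-fold, with a limma adjusted p of 1.11e-07. Leaving out the glomeruli of rat 1 or of rat 3 gave 3.46 and 3.22.

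rno-miR-141-3p, made from the other gene cluster, had the lowest mean of the 4 in glomerulus, 3.80, from values of 4.71 and 2.89 that rest on 21 and 5 reads. Its tubule values began at 6.85, in the proximal tubule of rat 2, and reached 418, in the collecting duct of rat 2. The log2 difference of 4.61 ± 0.66 (limma adjusted p = 2.03e-10) therefore averages over tubule segments that differ widely, as given further on. Leaving out the glomeruli of rat 1 or of rat 3 gave 5.24 and 3.98.

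rno-miR-200b-5p, the other arm of the Mir200b hairpin, was the scarce member. It had values of 9.42, 17.1 and 12.1 in collecting duct, 15.1, 4.96 and 8.07 in thick ascending limb, 4.06, 7.20 and 0 in proximal tubule, and 5.40 and 0 in glomerulus. All 3 collecting duct libraries lay above those of proximal tubule and of glomerulus, while the other groups overlapped, and no library gave more than 64 reads. Its log2 difference of tubule segments minus glomerulus was 1.41 ± 1.03, with a 95% interval from −0.61 to 3.43 and a limma adjusted p of 0.36. A difference of the size seen for rno-miR-429, 3.34, lies inside that interval.

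For 4 of the 5 members every tubule library lay above every glomerulus library, against 9.57% of all miRNAs. Each segment by itself gave the same 4 calls. In collecting duct against glomerulus, where 11.2% of all miRNAs were higher, the log2 differences of the 4 ran from 3.78 for rno-miR-200b-3p to 6.28 for rno-miR-141-3p. In thick ascending limb against glomerulus, where 7.98% were higher, they ran from 3.00 for rno-miR-200b-3p to 4.83 for rno-miR-141-3p. In proximal tubule against glomerulus, where 13.8% were higher, they ran from 2.74 for rno-miR-141-3p to 4.16 for rno-miR-200a-3p. The order of the members is not settled: without rat 1 glomeruli rno-miR-200a-3p stood above rno-miR-141-3p in collecting duct (7.28 and 6.91) and in thick ascending limb (6.30 and 5.46), and rno-miR-429 was lowest in proximal tubule, at 3.07. Without rat 3 glomeruli rno-miR-200a-3p was lowest in all 3 segments, at 2.10, 1.12 and 1.58, and its call ended in thick ascending limb and in proximal tubule. In thick ascending limb it also ended without a variance trend (limma adjusted p = 0.082). The call of rno-miR-141-3p in proximal tubule ended without rat 3 proximal tubule (1.74, limma adjusted p = 0.26), without a variance trend (0.058), with array weights (0.061) and with flow cell D alone (0.073). The shares of all miRNAs called higher also moved, to 33.5%, 21.3% and 37.2% in the 3 segments without rat 1 glomeruli and to 6.91%, 6.38% and 7.98% without rat 3 glomeruli.

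Summed over the 5 members, the family's value was 1207 ± 388 in collecting duct, 634 ± 196 in thick ascending limb, 539 ± 121 in proximal tubule (SD, n = 3 each) and 84.7 ± 68.8 in glomerulus (SD, n = 2). As a share of the summed value of all 188 miRNAs this was 0.572% ± 0.107, 0.435% ± 0.065, 0.304% ± 0.047 and 0.0637% ± 0.0242 in the same order. The family is therefore a small part of the measured miRNA in every region, and smallest in the glomerulus.

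Some markers of other cells also differed in this comparison. In the glomerulus both endothelial markers were higher: the log2 difference of tubule segments minus glomerulus, in which 4.79% of all miRNAs were called lower, was −1.57 ± 0.45 for miR-126a-5p and −1.50 ± 0.52 for miR-126a-3p (limma adjusted p = 0.0054 and 0.027). Called lower were 9 of 188 miRNAs, against 1 with array weights, 25 after scaling by the median of ratios and 30 after scaling to the same total. With array weights, therefore, at most 1 of the 2 endothelial calls can remain. The 2 smooth muscle and mesangial markers measured, miR-143-3p and miR-145-5p, summed to 6635 to 8080 in collecting duct, 4781 to 6094 in thick ascending limb, 6119 to 8034 in proximal tubule and 10382 to 16388 in glomerulus. Neither passed singly, with log2 differences of −0.95 ± 0.46 and −1.61 ± 0.78 (limma adjusted p = 0.13 for each). The 3 epithelial miRNAs measured outside the family, miR-182, miR-375-3p and miR-96-5p, summed to 4381 to 14890 in collecting duct, 2547 to 4075 in thick ascending limb, 1819 to 7494 in proximal tubule and 74.7 to 84.5 in glomerulus. miR-182 was the largest of the 3 in every region. Tubule segments minus glomerulus gave 5.79 ± 0.45 for miR-182 and 4.43 ± 0.51 for miR-375-3p (limma adjusted p = 2.51e-32 and 1.03e-15). miR-96-5p, at 0 in both glomerulus libraries, was not called, at 2.35 ± 1.05 (limma adjusted p = 0.10). Along the tubule they differed in direction: collecting duct minus proximal tubule gave 1.54 for miR-182 and −1.85 for miR-375-3p (limma adjusted p = 0.0082 and 0.0057). The 2 fibroblast and mesenchyme markers measured, miR-199a-3p and miR-199a-5p, summed to 69.3 to 172 in collecting duct, 54.7 to 155 in thick ascending limb, 76.7 to 130 in proximal tubule and 13.0 to 72.3 in glomerulus. miR-199a-3p was higher in the tubule segments than in glomerulus, by 2.69 ± 0.63 on the log2 scale (limma adjusted p = 0.00033). miR-199a-5p was not called, at 0.47 ± 0.84 (limma adjusted p = 0.77). How far the share of epithelial cells accounts for the family's difference was not tested.

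Along the tubule the 4 members from the chromosome 5 cluster did not differ past the threshold between any 2 segments. In collecting duct minus thick ascending limb the log2 differences were 0.78 for rno-miR-200b-3p (95% interval −0.25 to 1.80), 0.98 for rno-miR-200a-3p (−0.28 to 2.23), 0.77 for rno-miR-429 (−0.35 to 1.88) and 0.50 for rno-miR-200b-5p (−1.51 to 2.52). Of the 5 members 0 were called in this comparison by limma after adjustment and 1, rno-miR-141-3p, at an unadjusted p under 0.05, with 2.13% of all miRNAs called higher. That share was 11.2% on leaving out either glomerulus library and 0 to 2.13% on leaving out any tubule library. The median over all miRNAs was 0.36, so that part of each difference is shared by most miRNAs under the authors' scaling.

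In collecting duct minus proximal tubule the differences were 0.83 for rno-miR-200b-3p (95% interval −0.19 to 1.86), 0.52 for rno-miR-200a-3p (−0.73 to 1.78), 0.98 for rno-miR-429 (−0.13 to 2.09) and 1.99 for rno-miR-200b-5p (−0.03 to 4.01), with limma adjusted p of 0.35, 0.66, 0.28 and 0.22. Collecting duct values of rno-miR-429 all lay above those of proximal tubule, 203 to 322 against 97.6 to 178. Collecting duct was above proximal tubule in 3 of 3 rats for rno-miR-200a-3p (by 0.077 to 0.84), rno-miR-429 (0.20 to 1.72) and rno-miR-200b-5p (1.10 to 3.67). For rno-miR-200b-3p it was so in 2 of 3 rats, by up to 1.60, and in rat 3 the difference was −0.087. The 3.67 of rno-miR-200b-5p is from rat 3, whose proximal tubule stood at 0, so its size depends on the pseudocount. With a pseudocount of 5 the estimate of rno-miR-200b-5p was 1.10, against 1.99. After scaling by the median of ratios, rno-miR-200b-3p and rno-miR-429 passed here, at 0.87 and 1.02 with limma adjusted p of 0.028 and 0.040. That scaling called 11.7% of all miRNAs higher here, against 4.26% as deposited. rno-miR-429 also passed with the tubule libraries alone (limma adjusted p = 0.043) and without rat 1 glomeruli (0.0498).

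For rno-miR-200b-3p, rno-miR-429 and rno-miR-200a-3p the estimates were smallest between thick ascending limb and proximal tubule. The log2 difference of thick ascending limb minus proximal tubule was 0.06 for rno-miR-200b-3p (95% interval −0.97 to 1.08), 0.21 for rno-miR-429 (−0.90 to 1.33) and −0.45 for rno-miR-200a-3p (−1.71 to 0.80). For rno-miR-200b-5p it was 1.49 (−0.53 to 3.5), more than its 0.50 between collecting duct and thick ascending limb. Both sizes depend on the pseudocount, and they were 0.755 and 0.349 with a pseudocount of 5. rno-miR-200b-3p differed by no more than 0.119 in any of the 3 rats. Differences inside these intervals cannot be told from 0 with 3 rats.

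**Figure D2:**
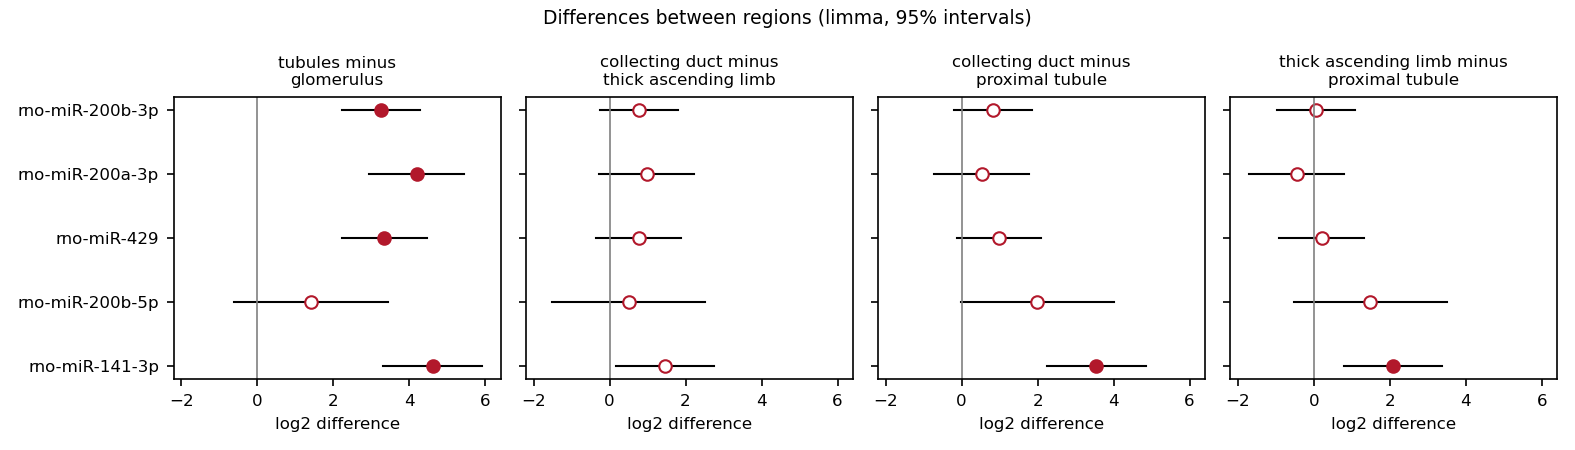
The x axes give log2 differences between regions for the 5 members named on the y axis. Circles are limma estimates, lines their 95% intervals, and filled circles passed an adjusted p of 0.05. In the first panel 4 members are filled, while in the comparisons within the tubule only rno-miR-141-3p is, at 3.54 and 2.09.

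rno-miR-141-3p, from the chromosome 4 cluster, was higher in collecting duct and in thick ascending limb than in proximal tubule. Its values in rats 1, 2 and 3 were 251, 418 and 230 in collecting duct, 113, 69.5 and 150 in thick ascending limb and 23.4, 6.85 and 81.9 in proximal tubule. In each of the 3 rats collecting duct was highest and proximal tubule lowest. The groups did not overlap between collecting duct and thick ascending limb or between collecting duct and proximal tubule, while the proximal tubule of rat 3 was above the thick ascending limb of rat 2. Reads behind it numbered 770 to 1254 in collecting duct, 172 to 1119 in thick ascending limb and 36 to 91 in proximal tubule.

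Collecting duct minus proximal tubule gave a log2 difference of 3.54 ± 0.66 for rno-miR-141-3p, or 11.7-fold, with a limma adjusted p of 3.83e-06. It was 1 of 5 members called, with 4.26% of all miRNAs called higher and a median over all miRNAs of −0.16. Leaving out the glomeruli of rat 1 or of rat 3 raised that share to 11.2% and 10.6%, and leaving out rat 1 or rat 2 proximal tubule lowered it to 2.66% in both cases. In single rats the difference ran from 1.49 in rat 3 to 5.75 in rat 2. The call held in all 25 alternatives tried, with differences from 2.71 (rat 2 collecting duct left out) to 4.40 (rat 3 proximal tubule left out), and limma adjusted p up to 0.017. Members whose collecting duct libraries all lay above the proximal tubule libraries numbered 3 of 5 (rno-miR-429, rno-miR-200b-5p and rno-miR-141-3p), against 16.0% of all miRNAs.

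Thick ascending limb minus proximal tubule gave 2.09 ± 0.66 for rno-miR-141-3p, or 4.26-fold, with a limma adjusted p of 0.030, and 1.06% of all miRNAs were called higher, 2.66% on leaving out either glomerulus library and 0 to 1.60% on leaving out any tubule library. This call was less firm. It was lost on leaving out collecting duct of rat 1 or 2, thick ascending limb of any rat, or proximal tubule of rat 1 or 2. Without rat 2 proximal tubule the difference was 1.27 with a limma adjusted p of 0.51. The difference held its sign in 3 of 3 rats, from 0.87 to 3.16, yet the ranges overlapped: of the members 0 had all thick ascending limb libraries above all proximal tubule libraries, against 6.38% of all miRNAs.

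Collecting duct minus thick ascending limb gave 1.45 ± 0.66 for rno-miR-141-3p, or 2.74-fold, with a 95% interval from 0.16 to 2.75 and a limma adjusted p of 0.29. It was higher in collecting duct in 3 of 3 rats, by 0.62 to 2.59, and the ranges did not overlap, as for 26.1% of all miRNAs. It passed when the tubule libraries were fitted alone (limma adjusted p = 0.012), with array weights (0.019) and without the glomeruli of rat 1 (0.021) or of rat 3 (0.024), and leaving out rat 2 collecting duct brought the difference to 0.62. The 3 leukocyte markers measured, miR-142-5p, miR-150-5p and miR-155-5p, summed to 90.7 to 123 in collecting duct, 25.1 to 43.3 in thick ascending limb, 29.5 to 51.6 in proximal tubule and 78.7 to 117 in glomerulus. The sums in collecting duct lay above those of both other segments, but none of the 3 passed singly between segments (lowest limma adjusted p = 0.093, miR-150-5p in collecting duct against thick ascending limb). miR-155-5p was at 0 in both glomerulus libraries. Their part in the differences of the family was not tested.

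The proximal tubule libraries spread widely for rno-miR-141-3p, with an SD of 1.70 on the log2 scale over 3 rats, against 0.117 for rno-miR-200a-3p and 0.254 for rno-miR-200b-3p in the same libraries. The 4 flow cell runs of each library stayed within 17.2 to 30.9 in rat 1, 5.57 to 8.18 in rat 2 and 65.7 to 94.9 in rat 3, so the spread lies between libraries rather than between runs. The limma model gives miRNAs of like abundance 1 shared variance and so does not see this wide spread in its standard error of 0.66. Other miRNAs, picked after their values were seen, stood as follows in the proximal tubule of rats 1, 2 and 3. miR-31a-5p, which had 257 to 536 in collecting duct, had 7.24, 3.15 and 4.02, and miR-205, which had 122 to 201 in collecting duct, had 41.2, 10.4 and 17.8, so neither was highest in rat 3. miR-182, which had 4192 to 14580 in collecting duct, had 1385, 2613 and 6072. miR-375-3p, which had 158 to 281 in collecting duct, had 434, 625 and 1417. Both were highest in rat 3, and so were the mesangial marker miR-143-3p (6093, 7597 and 7992) and the endothelial miR-126a-3p (128, 148 and 228). The proximal tubule markers miR-192-5p (21065, 26006 and 20807) and miR-194-5p (233, 360 and 323) were highest in rat 2. The part of other tubule segments in these captures was not tested.

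Within a library, ratios of values between members do not depend on the scaling of that library. The log2 ratios below were taken after adding the pseudocount and can depend on both for scarce members. rno-miR-141-3p and rno-miR-200a-3p share a seed and come from different clusters. The value of rno-miR-141-3p was 1.71, 2.12 and 2.16 times that of rno-miR-200a-3p in the collecting duct of rats 1, 2 and 3. It was 1.28, 1.79 and 1.24 times in thick ascending limb and 0.250, 0.0624 and 0.804 times in proximal tubule. rno-miR-141-3p was thus the more abundant of the pair in all 6 distal libraries, and rno-miR-200a-3p in all 3 proximal tubule libraries and in the glomerulus of rat 1, at a ratio of 0.138. In the glomerulus of rat 3, with rno-miR-200a-3p at 0, a ratio rests on the pseudocount alone.

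The mean log2 ratio was 0.99 ± 0.19 in collecting duct, 0.51 ± 0.29 in thick ascending limb, −2.03 ± 1.76 in proximal tubule (SD, n = 3 each), and −2.66 in the glomerulus of rat 1. By an exact permutation test of the spread of region means within rats over 3456 arrangements, two-sided, p was 0.153, and 0.469 after adjustment over the 4 ratios tested. That p includes the ratio set by the pseudocount in rat 3 glomeruli, and it was 0.226 with a pseudocount of 0.5 and 0.036 with 5 (0.108 after adjustment). Without rat 3 glomeruli the exact permutation p was 0.014, and 0.056 after adjustment, and it was 0.076 to 0.528 with any other single library left out. Over the tubule libraries alone the exact permutation p was 0.028, the smallest that 216 arrangements can give, and 0.111 after adjustment. Of the 4 ratios 0 passed after adjustment in any of these settings.

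**Figure D3:**
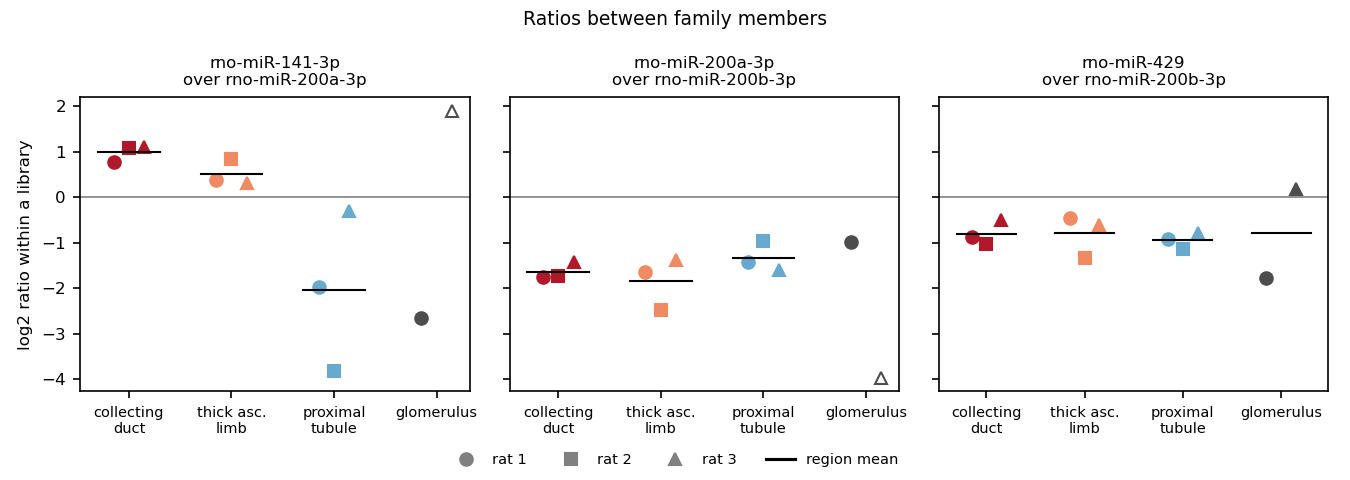
Each panel shows the log2 ratio of a pair of members within a library on the y axis and the region on the x axis. Points are libraries (circle rat 1, square rat 2, triangle rat 3) open points mark libraries with rno-miR-200a-3p at 0, where the pseudocount sets the ratio, and black bars are means of filled points where there are 2 or more. The ratio of rno-miR-141-3p over rno-miR-200a-3p is above 0 in all collecting duct and thick ascending limb libraries and below 0 in all proximal tubule libraries, while those of rno-miR-200a-3p and of rno-miR-429 over rno-miR-200b-3p are below 0 in all tubule libraries.

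The ratios of rno-miR-429 and of rno-miR-200a-3p to rno-miR-200b-3p, all from the chromosome 5 cluster, varied less along the tubule. The log2 ratio of rno-miR-429 over rno-miR-200b-3p was −0.80 ± 0.27 in collecting duct, −0.79 ± 0.46 in thick ascending limb, −0.95 ± 0.18 in proximal tubule and −0.79 ± 1.38 in glomerulus (SD, n = 3, 3, 3 and 2), with an exact permutation p of 0.906. In all 9 tubule libraries rno-miR-429 had 0.398 to 0.726 times the value of rno-miR-200b-3p. In the glomerulus of rat 3 it had 1.25 times, where the pair rest on 32 and 27 reads. The log2 ratio of rno-miR-200a-3p over rno-miR-200b-3p was −1.63 ± 0.18 in collecting duct, −1.83 ± 0.58 in thick ascending limb, −1.32 ± 0.32 in proximal tubule (SD, n = 3 each) and −0.99 in the glomerulus of rat 1. Without rat 3 glomeruli, where rno-miR-200a-3p was at 0, the exact permutation p was 0.396, against 0.641 with that library.

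The arms of the Mir200b hairpin were very unequal. rno-miR-200b-3p had 23.7 to 52.4 times the value of rno-miR-200b-5p in collecting duct, 17.9 to 43.8 times in thick ascending limb, and 62.7 and 29.8 times in the proximal tubule of rats 1 and 2, against 12.8 times in the glomerulus of rat 1. rno-miR-200b-5p was at 0 in the proximal tubule and glomerulus of rat 3, where no ratio of values can be given. Ligation and amplification differ between small RNAs of different sequence, so a ratio between members within a library is a ratio of reads and not of molecules.

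**Figure D4:**
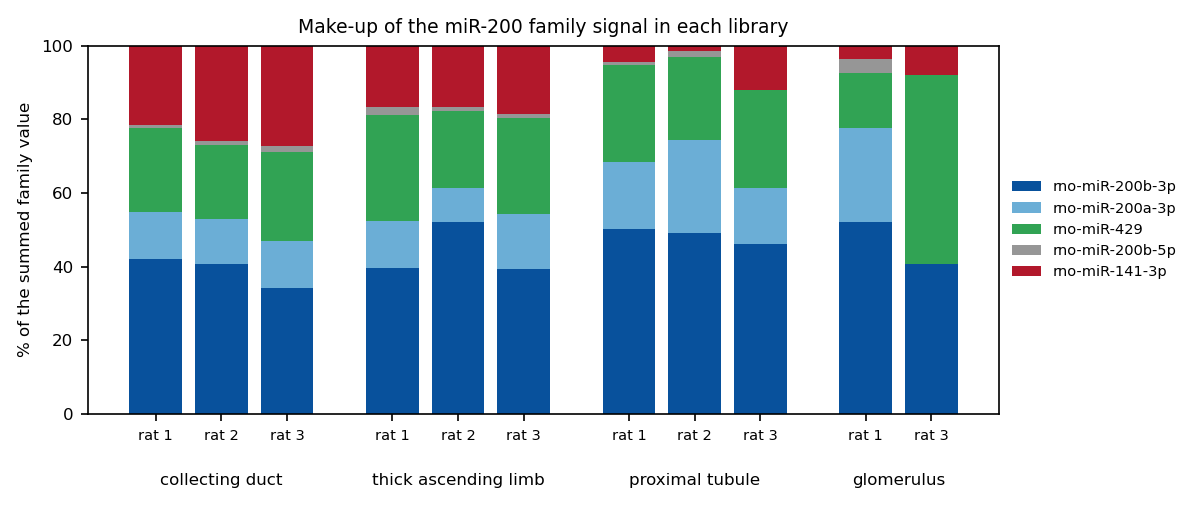
Bars show each library's family value divided among the 5 members, in percent of the summed family value on the y axis, with libraries grouped by region on the x axis. The share of rno-miR-141-3p lies between 21.5% and 27.4% in collecting duct and between 1.57% and 12.2% in proximal tubule.

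As a share of the family's summed value rno-miR-141-3p made up 24.9% ± 3.1 in collecting duct, 17.3% ± 1.2 in thick ascending limb, 6.12% ± 5.47 in proximal tubule and 5.78% ± 3.17 in glomerulus. rno-miR-200b-3p made up 39.1% ± 4.2, 43.7% ± 7.3, 48.5% ± 2.1 and 46.4% ± 7.9 in the same order. In the glomerulus of rat 3 rno-miR-429 was the leading member instead, at 51.1%. By seed, the reads of the members that hold AACACUG (rno-miR-200a-3p and rno-miR-141-3p) came mostly from rno-miR-141-3p in all collecting duct and thick ascending limb libraries. In all proximal tubule libraries they came mostly from rno-miR-200a-3p. The ratio of this pair did not differ among regions past the threshold after adjustment.

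Across the 9 tubule libraries, rno-miR-200b-3p, rno-miR-200a-3p and rno-miR-429 of the chromosome 5 cluster varied together, and rno-miR-200b-5p of the same cluster less so. Pearson's r of log2 values was 0.887 between rno-miR-200b-3p and rno-miR-429, 0.796 between rno-miR-200a-3p and rno-miR-429 and 0.772 between rno-miR-200b-3p and rno-miR-200a-3p. For rno-miR-200b-5p it was 0.332 with rno-miR-200b-3p, 0.30 with rno-miR-200a-3p and 0.371 with rno-miR-429. With rno-miR-141-3p it was 0.828 for rno-miR-429, 0.757 for rno-miR-200b-3p and 0.377 for rno-miR-200a-3p, the partner in seed. These points share rats, library depth and the authors' scaling, and the values describe these libraries only.

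Among other miRNAs with a mean value of at least 10, those most like rno-miR-141-3p over the 9 tubule libraries were miR-3574 and miR-210-3p, each with r = 0.959, and miR-10a-5p, with r = 0.942. The first 2 hold identical values in all 44 runs and so count once. For rno-miR-200b-3p the most alike were miR-126a-5p (r = 0.940), miR-27b-3p (0.905) and the endothelial miR-126a-3p (0.881), for rno-miR-200a-3p let-7i-5p (0.936), miR-29a-3p (0.902) and let-7c-5p (0.885), and for rno-miR-429 miR-27b-3p (0.918), miR-27a-3p (0.896) and miR-30a-5p (0.886). For rno-miR-200b-5p they were miR-24-2-5p (0.800), miR-672-5p (0.715) and miR-19b-3p (0.710). With the 2 glomerulus libraries added the closest changed, to miR-3553 for rno-miR-200b-3p (0.955), miR-672-5p for rno-miR-200a-3p (0.965) and rno-miR-200b-5p (0.741) and miR-182 for rno-miR-429 (0.931), while miR-3574 and miR-210-3p stayed first for rno-miR-141-3p (0.929). Of 122 miRNAs compared, no other member of the family was counted.

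Other miRNAs are known to repress ZEB1, ZEB2, SNAI1 or SNAI2, transcription factors of the same transition. Of 15 listed, 11 were measured, and 4 were higher in the tubule segments than in glomerulus, as were 14.9% of all miRNAs: miR-192-5p, miR-203a-3p, miR-203b-3p and miR-205. Their log2 differences were 2.09, 4.24, 3.18 and 2.46, with limma adjusted p up to 0.016. In glomerulus miR-203a-3p stood at 0.03 to 0.07 and miR-203b-3p at 0, so the sizes of these differences depend on the pseudocount. The list's median was −0.28, against 0.56 over all miRNAs, and the 4 measured members of the miR-30 family lay between −0.48 and −0.28 with none called. In collecting duct minus proximal tubule 1 was higher, miR-205, at 2.98 (limma adjusted p = 0.0013), and 3 were lower, at −3.69 for miR-192-5p, −3.19 for miR-203a-3p and −3.41 for miR-203b-3p, against 4.26% of all miRNAs called higher and 5.85% called lower. miR-203a-3p and miR-203b-3p stood at 0 to 16.0 and 0.41 to 5.07 in collecting duct, so their sizes here depend on the pseudocount too. miR-205 was also higher in collecting duct than in thick ascending limb, at 2.52 (limma adjusted p = 0.032). In thick ascending limb minus proximal tubule 0 were higher and 1, miR-192-5p, was lower at −2.84, against 6.91% of all miRNAs called lower.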

How the data were processed

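Per the labels' protocols, small RNA libraries (TruSeq) were read as 50 bp single ends. The submitters' processing notes name Partek 6.0, Bowtie2 2.2.5, Bowtie 1.0.0 and the build rn6. The deposited signal is read counts that the authors scaled by TMM and filtered for low counts, per the name of their file. Reads were estimated from the spacing of low values, as the largest step at which at least 85% were whole within 0.03 reads. At that step 88.3% to 99.0% were whole, and a share of at least 85% follows from the search itself. As the values are scaled counts, no count test was run. Floors (3 reads) cover counting error only, while the 95% intervals are limma's. The prior degrees of freedom were infinite, so these intervals use the variance shared by miRNAs of like abundance and not each member's own spread. log2(value + 1) was averaged over the 4 runs of a library and fitted in limma 3.58.1 (R 4.3.3) with region and rat as terms and a variance trend, adjusted by Benjamini-Hochberg over 188 miRNAs at 0.05, two-sided. A fold is on this scale, where the pseudocount shrinks differences of scarce miRNAs, yet it can also lie above the ratio of mean values. For rno-miR-141-3p in collecting duct over proximal tubule the fold was 11.7 and the ratio of mean values 8.02. Rats pair the libraries, as labelled; deviations of same-rat libraries had a median correlation of 0.03 over 15 pairs. The fit left 5 residual degrees of freedom, and the scripts were tested on simulated data. Ratios were tested by exact permutation within rats. All 5 members are named, with the 3 most alike miRNAs each. The members, lists and tests were chosen with earlier results of these data known. Alternatives varied the pseudocount, scaling, filter, variance trend, rat term, weights, flow cell and libraries. The left-out glomerulus library was not used.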

Additional observations from a re-analysis of the deposited data

How the results depend on the processing

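Of the comparisons with the glomerulus, the count of members higher stayed at 3 or 4 in every alternative, and 0 members were lower in any. Members called by the F-test numbered 3 without a variance trend and 4 in the other alternatives. The F-test called 19.1% of all miRNAs without a variance trend, against 24.5%. Within the tubule the counts moved, as did the shares of all miRNAs called higher. In collecting duct against proximal tubule that share was 11.7% both by the median of ratios and with the tubule libraries alone, against 4.26%. In collecting duct against thick ascending limb it was 7.98% with array weights and 11.2% with the tubule libraries alone, against 2.13%. Members higher in collecting duct than in proximal tubule numbered 3 after scaling by the median of ratios and 2 with the tubule libraries alone, against 1, and 1 to 2 with single libraries left out. Members higher in collecting duct than in thick ascending limb numbered 1 with array weights and with the tubule libraries alone, against 0, and 0 to 1 with single libraries left out. Members higher in thick ascending limb than in proximal tubule numbered 0 without a variance trend, with the rat as a random effect and with flow cell B or D alone, against 1, and 0 to 1 with single libraries left out. In the paired design, dropping the replicate block left the counts at 4 for the F-test and for tubule segments against glomerulus, 0 for collecting duct against thick ascending limb and 1 for each of the other 2 comparisons within the tubule; no call of a member changed. Without the block 29.8% of all miRNAs were called by the F-test and 19.1% as higher in the tubule segments than in glomerulus. In thick ascending limb against proximal tubule the share called higher was 1.06% in the main fit. It was 0.532% with the rat as a random effect and with flow cell B alone. Without a variance trend and with flow cell D alone it was 0. Flow cell D held the fewest estimated reads in every library. The cause of these changes was not tested.

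Reversals of sign touched differences that had not passed. rno-miR-200a-3p in thick ascending limb minus proximal tubule was 0.02 after scaling by the median of ratios and −1.32 to 0.15 with single libraries left out. rno-miR-200b-5p was −0.11 in collecting duct minus thick ascending limb with array weights, and −0.26 to 1.12 with single libraries left out (−0.03 and −0.26 where it reversed). In proximal tubule minus glomerulus it was −0.32 with flow cell D alone, and −0.61 to 1.12 with single libraries left out (−0.61, −0.20 and −0.002 where it reversed). rno-miR-200b-3p in thick ascending limb minus proximal tubule was −0.32, −0.17 and −0.12 where it reversed, within −0.32 to 0.45 with single libraries left out. rno-miR-200a-3p in collecting duct minus proximal tubule was −0.029 at its lowest and 0.99 at its highest with single libraries left out. Of the log2 differences of single members over these settings, 808 kept sign and call, 19 lost a call, 8 gained one and 13 reversed.

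Scaling moved all miRNAs together. The median log2 difference of tubule segments minus glomerulus was 0.56 as deposited, 0.20 by the median of ratios and 0.08 with the same total, while rno-miR-200b-3p was at 3.24, 2.78 and 2.66 and rno-miR-141-3p at 4.61, 4.21 and 4.11. In collecting duct minus thick ascending limb the medians were 0.36, −0.05 and −0.15, and rno-miR-141-3p was at 1.45, 1.02 and 0.92. The miRNAs called higher in collecting duct than in proximal tubule numbered 22 by the median of ratios, against 8. With 2 glomerulus libraries, 1 of them at the lowest depth, levels near 0 there are poorly set. The family's other arms were not analysed here.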

Other observations

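Flow cells differed slightly for the family. Flow cell D held the fewest estimated reads in every library, such as 15771 against 41064 to 47868 on the others in rat 3 glomeruli. rno-miR-200b-3p had its highest run on flow cell D in 8 of 11 libraries, with a median deviation of 0.22 from the library mean on the log2 scale, while rno-miR-200a-3p and rno-miR-429 did so in 4 of 11 each and rno-miR-141-3p in 6 of 11. The median SD between the 4 runs of a library was 0.17 to 0.36 on the log2 scale over the 5 members.

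miR-3574 and miR-210-3p, which were most like rno-miR-141-3p, carry the same value in 44 of 44 runs.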
